A study of Homo sapiens with 18 samples.

Results

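The genes described here were 35 genes of glycolysis and the response to low oxygen, taken from the 58051 genes of the deposited RNA sequencing table by a list of symbols matched to Ensembl gene IDs. They were measured in 2 melanoma cell lines, SKMEL2 and SKMEL30, each transduced with pTRIPZ-PPP2R3B, a tet-ON vector from which doxycycline switches on PPP2R3B, a regulatory subunit of the phosphatase PP2A. Each line was 1 transduced and selected cell population grown in 6 well plates. It gave 3 libraries of uninduced cells, 3 after 6 hours and 3 after 18 hours of doxycycline, 18 libraries in all. The vector was present in every group, the uninduced ones included. There was no library of cells given doxycycline without the PPP2R3B vector, so an effect of doxycycline cannot be told apart from an effect of PPP2R3B, and the harvest time of the uninduced cells was not given in the sources used here. The labels put the later time at 18 hours, the time used here, while the text of the study gives a different one. Whether replicates came from separate cultures was not stated, so p-values measure the spread between these libraries, which may be technical.

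Glycolysis splits glucose into pyruvate in the cytosol, and lactate dehydrogenase can turn that pyruvate into lactate, which leaves the cell through monocarboxylate transporters. When oxygen is low, the prolyl hydroxylases that mark hypoxia-inducible factor (HIF) for destruction through VHL work poorly, HIF accumulates as a protein, and transcription of many glycolytic and other target genes rises. Tumor cells, melanoma cells among them, often run glycolysis with oxygen present. On the protein level, by reverse phase protein arrays, the study reported enrichment of HIF-1 and mTOR signaling after induction. Its plots of these arrays marked proteins at an unadjusted p under 0.05. The study also stated that effects on known melanoma signaling pathways were not dramatic. The comparisons here ask what the transcripts of HIF target genes did after induction, which is a different measure from protein.

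Total counts ran from 13402645 to 22383470 per library (median 17958636). Levels are given as CPM, counts scaled to a common library total, after TMM scaling of all 18 libraries. PPP2R3B lay between 17.2 and 24.4 CPM in the 6 uninduced libraries, and between 343 and 617 CPM in the 12 induced ones. Melanocyte markers summed to between 3808 and 4558 CPM in SKMEL2 and between 8674 and 9198 CPM in SKMEL30. The keratinocyte markers KRT5 and KRT14 together gave between 0.0668 and 63.9 CPM, with the highest sums in SKMEL30 in replicate 3 at 6 hours (1369 counts) and replicate 3 at 18 hours (194 counts). In SKMEL2 they gave 6.91 to 15.03 CPM in uninduced cells, 0.517 to 7.99 CPM at 6 hours and 0.717 to 13.6 CPM at 18 hours. Other markers (PTPRC, COL1A1, COL1A2, COL3A1 and EPCAM) summed to between 6 and 124 counts per library. Whether these reads came from other cells was not tested, nor was their part in the results. The SKMEL30 tests are given with and without both keratin-rich libraries, and the SKMEL2 tests were not refitted in this way. In bulk RNA, fewer cells of a type and less RNA per cell cannot be told apart.

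Most of the members were abundant. The 17 glycolytic enzymes together made up between 1.24% and 1.48% of all counts in SKMEL2 libraries and between 1.70% and 1.79% in SKMEL30 libraries. Levels of different genes are compared per kilobase of canonical transcript. In uninduced SKMEL2 the order began with GAPDH, which oxidizes glyceraldehyde phosphate (2412 ± 100 CPM per kilobase, SD, n = 3), then ENO1 (1247 CPM per kilobase) and PKM (805 CPM per kilobase). In uninduced SKMEL30 the same genes led, with GAPDH at 3443, ENO1 at 1473 and PKM at 1379 CPM per kilobase. The enzymes of the early, regulated steps were far lower on this scale, with HK1 and HK2, which phosphorylate glucose, at 31.3 and 23.2 CPM per kilobase in SKMEL2 and 65.9 and 29.3 in SKMEL30. SLC2A1, the main glucose importer of many cells, stood at 19.4 and 28.3 CPM per kilobase in SKMEL2 and SKMEL30.

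At the low end stood 4 members that are strongly induced by hypoxia or found in few tissues. CA9, a carbonic anhydrase of the cell surface whose transcription depends closely on HIF, had between 0 and 2 counts in the 18 libraries. CA12, a related carbonic anhydrase, had at most 12 counts, and ADM, the peptide hormone adrenomedullin, at most 15. ALDOC, the brain aldolase, had between 1 and 15 counts. CA9, CA12 and ADM did not pass the filter on low counts in either line, and ALDOC passed it in SKMEL30 and not in SKMEL2, which left 31 members tested in SKMEL2 and 32 in SKMEL30. Changes of CA9, CA12 and ADM were not tested, and a count of 0, as in some libraries of CA9 and CA12, allows a level of up to 3 counts. The plot of levels by library shows a narrow spread within groups for most other members. SLC16A3 and EGLN3, which were also low, spread more widely. SLC16A3 measured 1.47, 0.534 and 1.54 CPM in SKMEL30 at 18 hours, and EGLN3 1.49, 1.39 and 0.607 CPM in SKMEL2 at 18 hours.

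**Figure D1:**
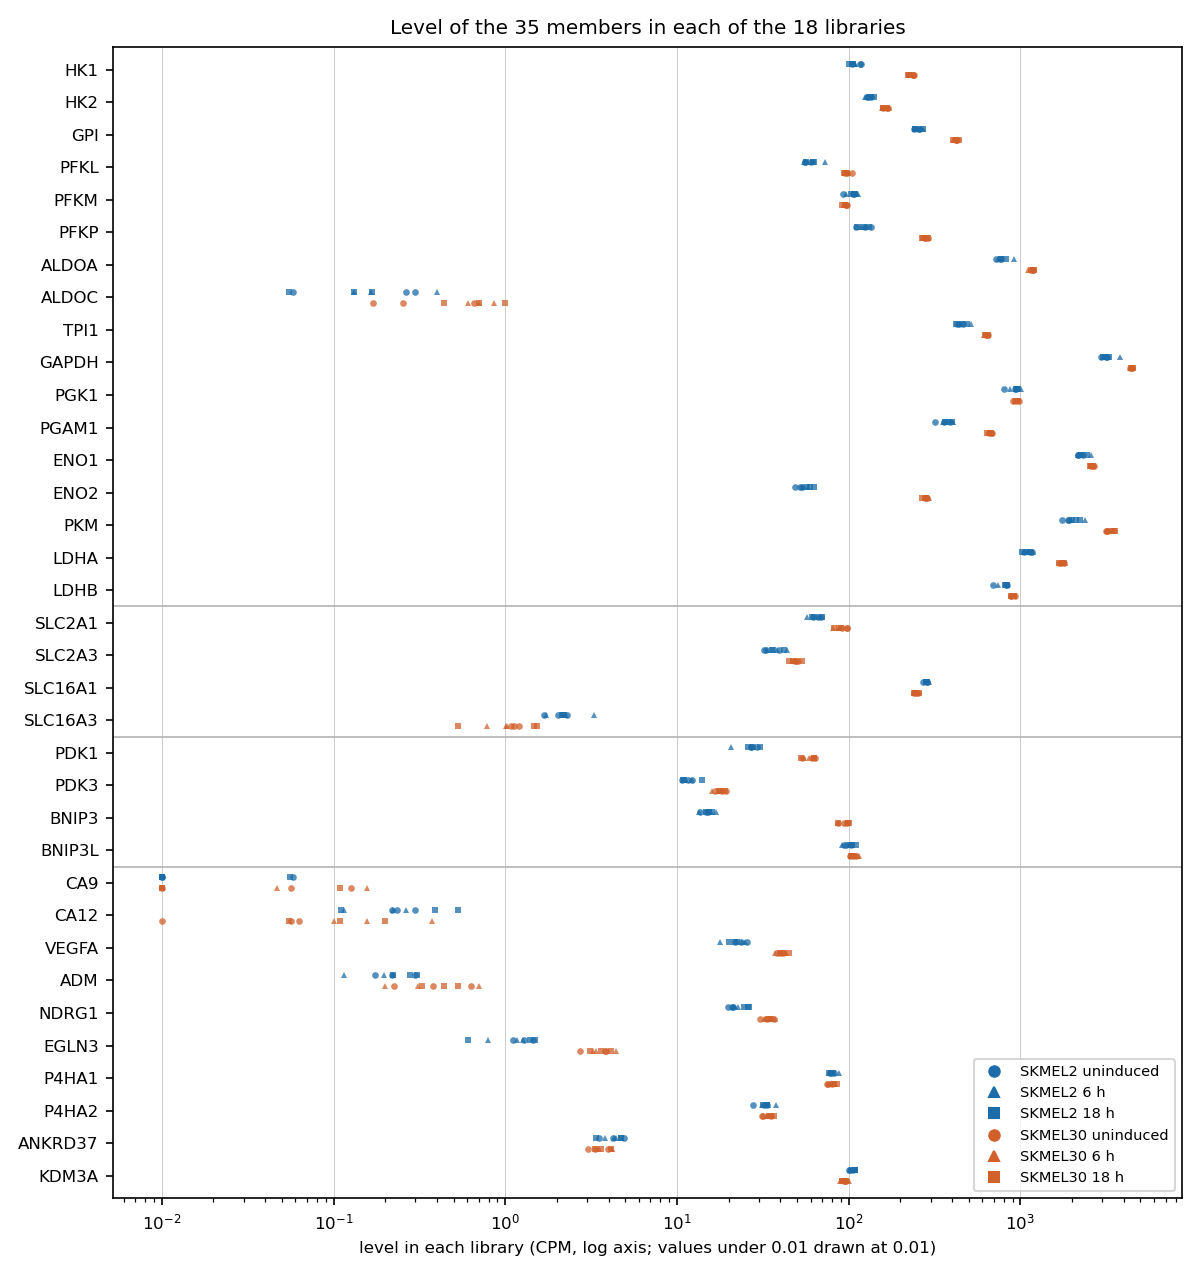
Level of each of the 35 members in each library, in CPM on a log axis. Colors mark the line and symbols the hours of doxycycline, and values under 0.01 CPM are drawn at 0.01. BNIP3, ENO2 and PFKP separate the lines, whereas CA9, CA12, ADM and ALDOC lie at or below about 1 CPM in all libraries.

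The uninduced lines differed in most members. Of 32 members tested, 22 were higher in SKMEL30 and 3 were lower (edgeR quasi-likelihood test, Benjamini-Hochberg adjusted p under 0.05), that is 78.1%, where 75.9% of all 17133 genes tested were called. The share of called members was near that of all genes. Of all genes called, 6129 were higher in SKMEL30 and 6875 lower, and the median log2 difference was 0.59 over the members and -0.05 over all genes. Among the 17 enzymes 14 were called, all higher in SKMEL30, while PFKM, PGK1 and ALDOC did not pass the test. Of the 4 transporters 2 were called higher and 2 lower, and of PDK1, PDK3, BNIP3 and BNIP3L 3 were called, all higher. Of the 7 other HIF targets tested 4 were called (57.1%), 3 higher and 1 lower. Their median log2 difference was 0.075, against 0.64 for the enzymes. The 9 and 9 libraries of the lines did not overlap for 21 of the 22 higher members and 2 of the 3 lower ones. Of all genes called, 82.0% had no such overlap, and these made up 62.3% of all genes tested.

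BNIP3, a mitochondrial membrane protein that takes part in mitophagy, showed the widest gap. Its levels were 14.7, 15.2 and 13.6 CPM in uninduced SKMEL2 and 87.0, 98.0 and 93.5 CPM in uninduced SKMEL30. The log2 difference was 2.68 (standard error 0.08, adjusted p = 2.59e-16, edgeR), or 6.40-fold. RSEM had shared BNIP3 reads with another gene in 14 of 18 libraries, so its level is less certain. BNIP3L, its close relative, lay at 97.9 ± 4.68 CPM in SKMEL2 and 106 ± 4.13 CPM in SKMEL30 (SD, n = 3) and did not pass the test (log2 difference 0.12, standard error 0.06).

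ENO2, the neuronal form of enolase, came next, at 52.2, 53.8 and 48.9 CPM in uninduced SKMEL2 and 282, 287 and 279 CPM in uninduced SKMEL30. The difference was 2.45 on the log2 scale (standard error 0.05, adjusted p = 6.07e-19, edgeR). EGLN3, a HIF prolyl hydroxylase that is itself a HIF target, was scarce in both lines, at 1.11, 1.29 and 1.45 CPM against 3.83, 2.73 and 3.86 CPM. Its log2 difference of 1.42 had a wide error (standard error 0.26, adjusted p = 5.33e-05).

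Of the phosphofructokinases and hexokinases, PFKM (log2 difference -0.08) was not called and HK2 differed by 0.34. PFKP, the platelet form of phosphofructokinase, measured 110, 124 and 134 CPM in SKMEL2 against 279, 291 and 280.0 CPM in SKMEL30 (log2 difference 1.20, standard error 0.07, adjusted p = 1.68e-12). HK1 measured 104, 118 and 116 CPM against 236, 237 and 239 CPM (1.07, standard error 0.04, adjusted p = 2.26e-14). PFKL, the liver form, measured 55.6, 60.4 and 55.6 CPM against 97.5, 104 and 95.2 CPM (0.79, standard error 0.07, adjusted p = 6.92e-09). For these 3 genes no SKMEL2 library reached the level of any SKMEL30 library.

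PGAM1, a phosphoglycerate mutase, stood at 357, 391 and 319 CPM in SKMEL2 and 654, 678 and 683 CPM in SKMEL30 (log2 difference 0.92, standard error 0.06, adjusted p = 7.49e-11, edgeR). PKM, the pyruvate kinase of most tissues, stood at 1744, 1895 and 1930.0 CPM against 3136, 3197 and 3204 CPM (0.78, standard error 0.07, adjusted p = 1.54e-09). PDK1, a kinase that inhibits pyruvate dehydrogenase, stood at 29.3, 27.0 and 27.1 CPM against 53.6, 61.3 and 63.7 CPM (1.10, standard error 0.10, adjusted p = 4.20e-09). The counts of PKM are for the gene, so its alternatively spliced M1 and M2 forms are not separated.

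Both lactate transporters among the members were lower in SKMEL30. SLC16A7, a related transporter outside the members, lay higher there, at 13.15 ± 1.11 CPM in uninduced SKMEL2 and 91.7 ± 3.59 CPM in uninduced SKMEL30 (SD, n = 3). SLC16A3, the lactate exporter MCT4 of glycolytic cells, was low in both lines, with 2.04, 2.29 and 1.67 CPM in SKMEL2 and 1.13, 1.20 and 1.08 CPM in SKMEL30. It was lower in SKMEL30 by the test (log2 difference -0.81, standard error 0.30, adjusted p = 0.0184, edgeR), and the call was lost without uninduced replicate 2 of SKMEL2 (-0.68, adjusted p = 0.0716) and without uninduced replicate 3 of SKMEL30 (-0.76, adjusted p = 0.0536). SLC16A1, the MCT1 transporter, differed less (-0.19, standard error 0.04, adjusted p = 0.000247), and KDM3A, a histone demethylase and HIF target, was lower by 0.11 on the log2 scale (standard error 0.05, adjusted p = 0.0395). The glucose importers SLC2A1 and SLC2A3 were both higher in SKMEL30, by 0.54 and 0.52 on the log2 scale.

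**Figure D2:**
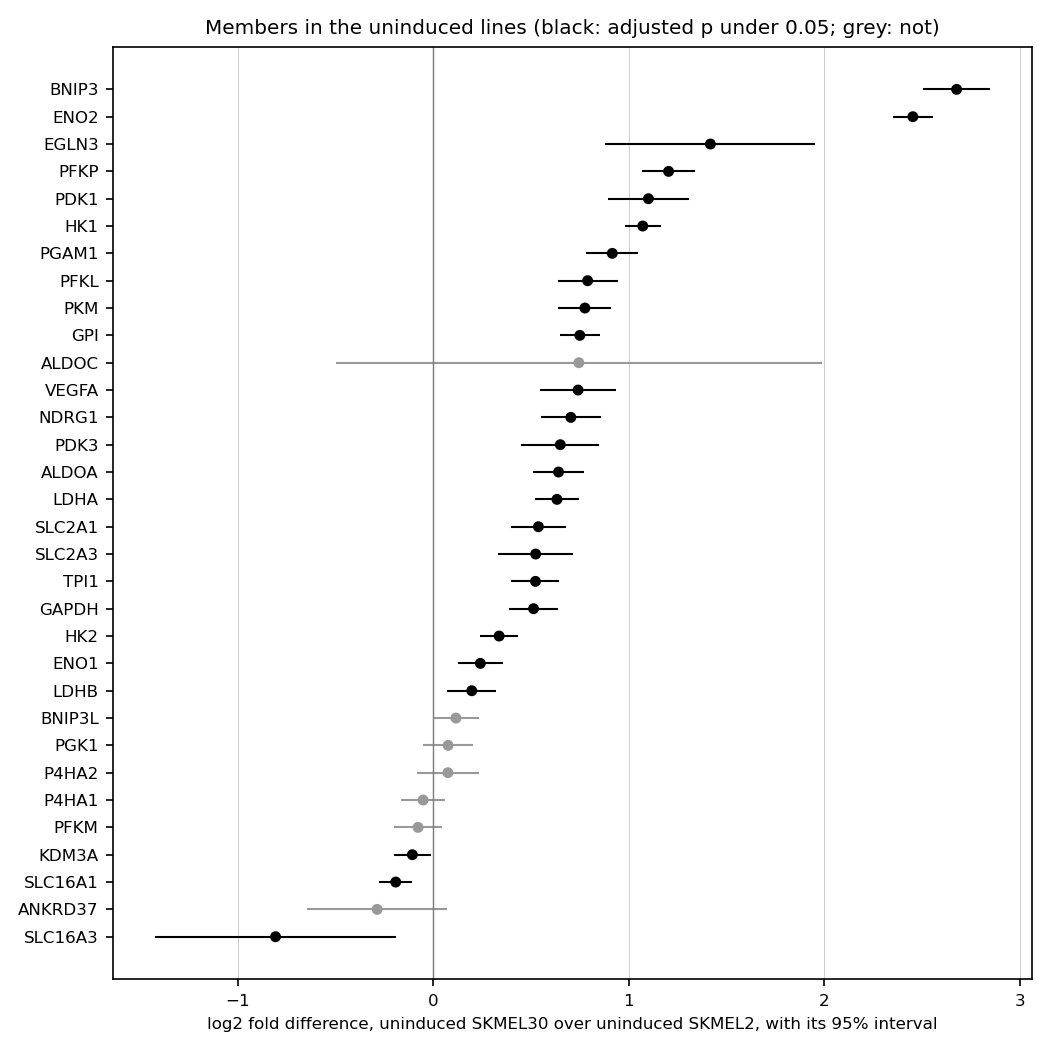
Log2 difference between uninduced SKMEL30 and uninduced SKMEL2 for the 32 members tested (points) with 95% intervals (lines), 3 libraries each. Members with an adjusted p under 0.05 are black, and those without are grey. BNIP3 at 2.68 and ENO2 at 2.45 stand to the right of all others, and SLC16A3 at -0.81 lies farthest to the left.

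Related genes that carry out the same step were set against each other as shares of their summed counts per transcript length. Of the 3 phosphofructokinase genes, PFKP made up 46.9% ± 3.56 and PFKM, the muscle form, 33.3% ± 2.997 in uninduced SKMEL2 (SD, n = 3). In uninduced SKMEL30 the shares were 62.3% ± 0.115 for PFKP and 18.1% ± 0.542 for PFKM, so that over all 9 libraries of each line PFKP ranged from 43.1% to 50.9% and from 61.6% to 63.7%. HK1 made up 57.4% ± 2.42 of HK1 and HK2 in uninduced SKMEL2 and 69.2% ± 0.578 in uninduced SKMEL30. BNIP3 made up 24.9% ± 0.950 of the BNIP3 pair in the one and 66.2% ± 1.07 in the other. ENO2 made up 1.77% ± 0.0531 and 7.72% ± 0.182 of enolase transcripts. LDHA, the lactate dehydrogenase form that HIF induces, made up 45.3% ± 3.18 in SKMEL2 and 52.8% ± 0.325 in SKMEL30, with LDHB as the remainder. These shares carry no test of their own, and which gene of a pair is the larger can depend on the division by length. Over all 9 libraries of a line, the ranges of PFKP, PFKM, HK1, BNIP3, ENO2 and LDHA did not overlap between the lines. Those of PFKL did (19.0% to 22.8% in SKMEL2 and 19.1% to 20.1% in SKMEL30). So did those of SLC2A1 among the glucose importers SLC2A1 and SLC2A3 (59.9% to 71.0% and 65.1% to 69.3%) and of P4HA1 among P4HA1 and P4HA2 (77.1% to 82.4% and 78.5% to 80.6%).

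**Figure D3:**
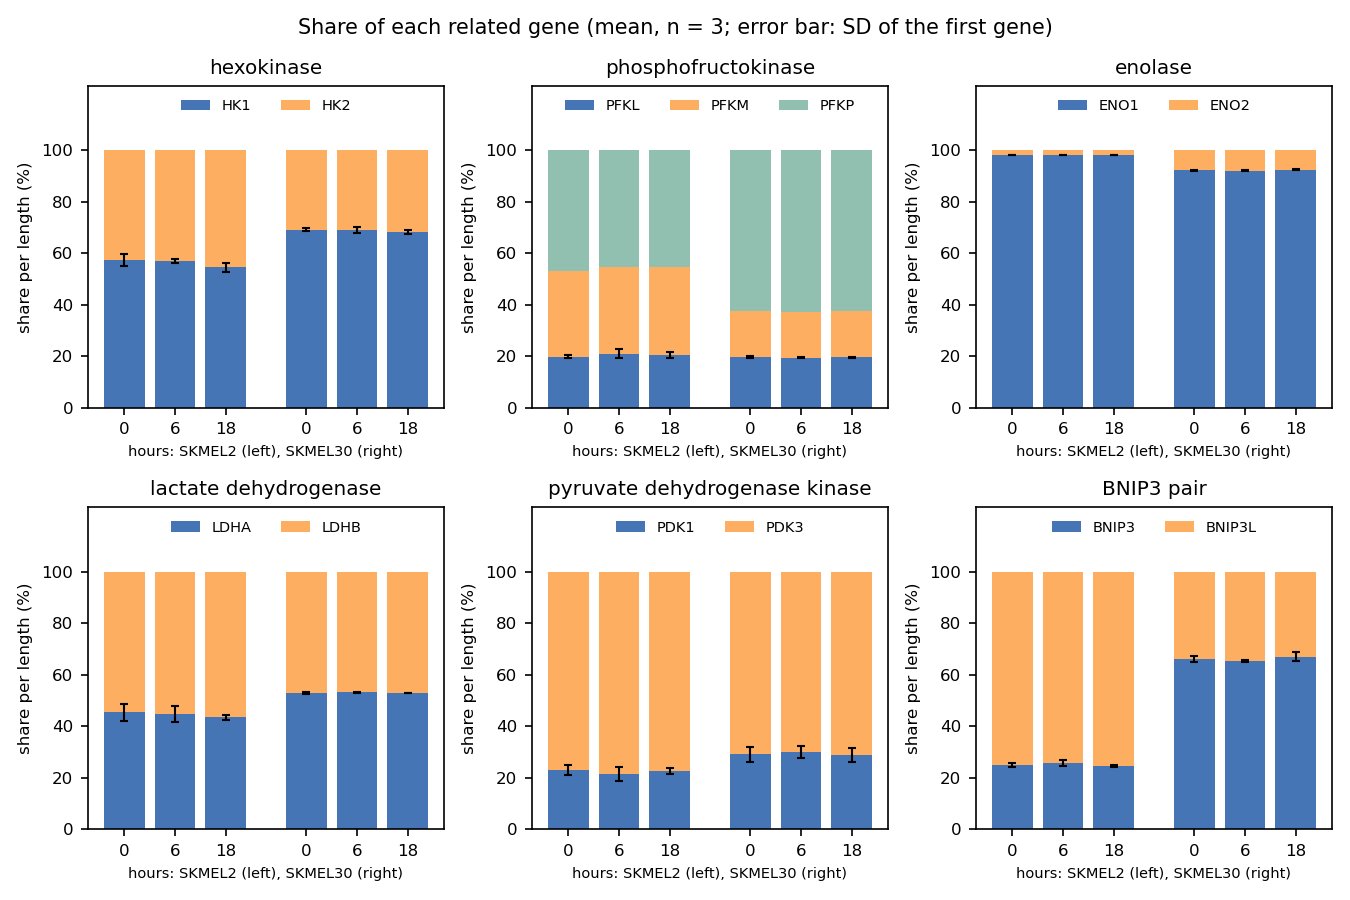
Share of each gene in the summed counts per length of its family (%), mean of 3 libraries for each line at 0, 6 and 18 hours, with the SD of the bottom gene as the error bar. The lines differ, with BNIP3 at 24.9% in uninduced SKMEL2 and 66.2% in uninduced SKMEL30, and the bars at 6 and 18 hours lie near the uninduced bar of the same line.

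Promoter sequence from RefSeq (GRCh38.p14) is shown for members on which the results turn: BNIP3 and ENO2, with the widest gaps between the lines, PKM, the one member called after induction, and CA9, the HIF target with almost no counts. Each run is the 250 bases before a RefSeq transcription start, 5′ to 3′ on the gene's strand. Capitals mark the core of the element that HIF binds, ACGTG or GCGTG read on either strand (CACGT or CACGC on the opposite one), and the E-box CACGTG overlaps it.
BNIP3, chr10:131981924-131982173, minus strand: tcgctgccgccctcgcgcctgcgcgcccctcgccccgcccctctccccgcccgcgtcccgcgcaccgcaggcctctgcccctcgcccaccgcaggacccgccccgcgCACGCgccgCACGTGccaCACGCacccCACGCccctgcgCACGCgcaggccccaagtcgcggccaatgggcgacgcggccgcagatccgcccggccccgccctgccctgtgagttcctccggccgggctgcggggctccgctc
ENO2, chr12:6914330-6914579, plus strand: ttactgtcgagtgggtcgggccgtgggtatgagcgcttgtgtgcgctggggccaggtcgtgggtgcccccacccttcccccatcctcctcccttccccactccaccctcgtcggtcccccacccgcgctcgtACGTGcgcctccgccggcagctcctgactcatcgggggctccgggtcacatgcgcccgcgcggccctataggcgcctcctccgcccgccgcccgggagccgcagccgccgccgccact
PKM, chr15:72231191-72231440, minus strand: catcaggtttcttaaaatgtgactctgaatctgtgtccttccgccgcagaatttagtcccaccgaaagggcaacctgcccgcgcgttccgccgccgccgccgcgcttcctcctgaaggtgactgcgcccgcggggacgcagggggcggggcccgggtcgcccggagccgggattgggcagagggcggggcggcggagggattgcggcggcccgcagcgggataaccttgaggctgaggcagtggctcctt
CA9, chr9:35673678-35673927, plus strand: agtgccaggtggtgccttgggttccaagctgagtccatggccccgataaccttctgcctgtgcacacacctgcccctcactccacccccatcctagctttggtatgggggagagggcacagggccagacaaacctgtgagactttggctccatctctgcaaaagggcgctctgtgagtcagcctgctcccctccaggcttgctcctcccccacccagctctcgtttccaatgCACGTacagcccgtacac
The BNIP3 window held 6 matches when both strands were counted, and CACGTG among them counts on each strand. The ENO2 and CA9 windows held 1 match each, and the PKM window none. A promoter entry was given for 30 of the 35 members, with 56 windows, of which 57.1% held a match, against 43.2% of 35116 windows of all genes. The E-box was in 12.5% of the members' windows and in 6.34% of all windows. A match is a description of the letters and not evidence of binding, and these windows leave out enhancers.

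After induction 1 member passed the test, in 1 of the 4 comparisons with uninduced cells. In SKMEL2 none of the 31 members tested was called at 6 hours or at 18 hours against uninduced cells (edgeR quasi-likelihood test), where 0.0124% of all 16120 genes were called at each time. At an unadjusted p under 0.05 there were 0 members at 6 hours and 3 at 18 hours, where 3.37% and 4.65% of all genes had such a p, and DESeq2 called none at either time. In SKMEL30 none of the 32 members tested was called at 6 hours, by edgeR or by DESeq2, where 0.206% of 15026 genes were called. An unadjusted p under 0.05 was found for 1 member and for 6.44% of all genes. At 18 hours 1 of the 32, PKM, was called, where 0.293% of all genes were called. An unadjusted p under 0.05 was found for 5 members and for 9.14% of all genes. The median log2 fold change over the members was 0.06 and 0.05 in SKMEL2 at 6 and 18 hours, and 0.00 in SKMEL30 at each time, and that over all genes was 0.00 in each comparison.

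How far the members could have moved is given by the intervals. In SKMEL2 the 95% interval of the log2 fold change lay within 0.5 of 0 for 29 of 31 members at each time, SLC16A3 and EGLN3 being the exceptions. In SKMEL30 it did so for 29 of 32 members at 6 hours, with ALDOC, SLC16A3 and ANKRD37 outside, and for 30 of 32 at 18 hours, with ALDOC and SLC16A3 outside. These exceptions were among the members with the fewest counts of those tested. The median standard error of the members was 0.08 in SKMEL2 and 0.04 in SKMEL30. A member that missed the test is bounded by its interval and is not shown to be equal between groups.

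**Figure D4:**
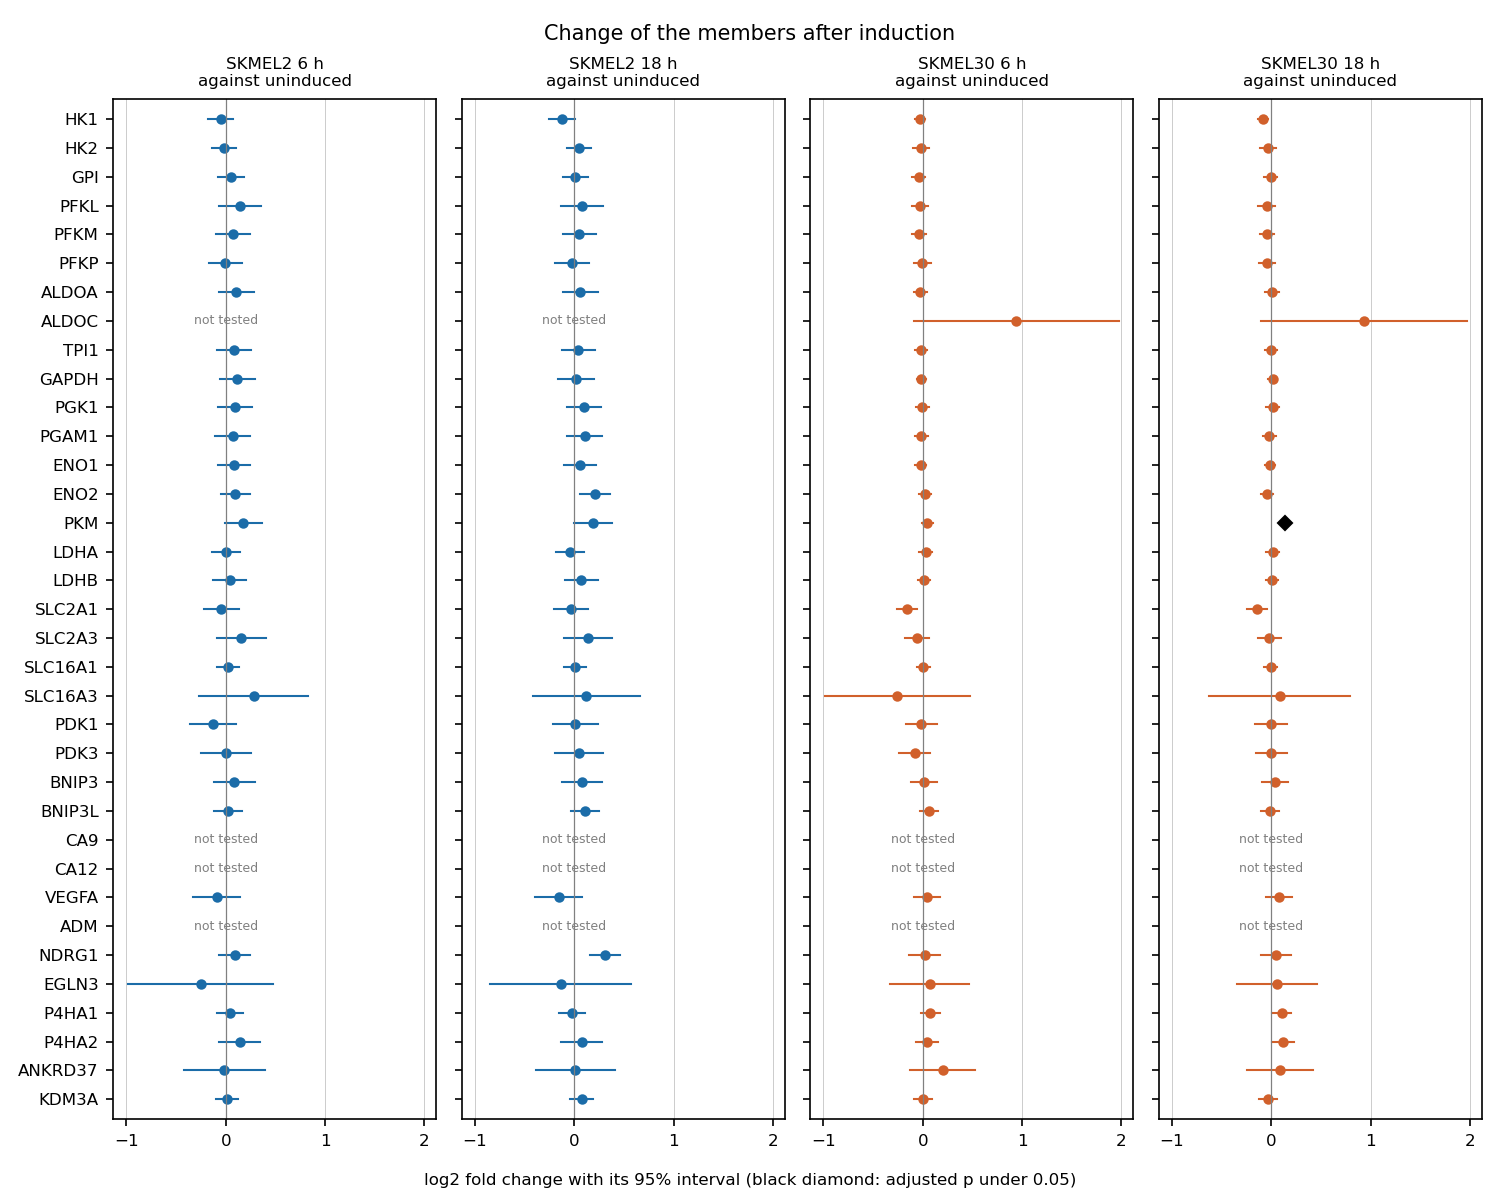
Log2 fold change of each member (points) with its 95% interval (lines) in the 4 comparisons of induced with uninduced cells, 3 libraries a group. The black diamond is PKM in SKMEL30 at 18 hours (0.14), the only member with an adjusted p under 0.05, and members that did not pass the filter on low counts are marked as not tested. The intervals are wider in SKMEL2 than in SKMEL30 for most members.

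PKM makes pyruvate in the last step of glycolysis. In SKMEL30 it measured 3136, 3197 and 3204 CPM in uninduced cells, 3316, 3202 and 3340.0 CPM at 6 hours and 3422, 3578 and 3529 CPM at 18 hours. All 3 libraries of 18 hours lay above all uninduced ones, and those of 6 hours overlapped them. PKM rose by 0.14 on the log2 scale at 18 hours (standard error 0.03, adjusted p = 0.025, edgeR), or 10.4%, and its change at 6 hours was 0.05 (adjusted p = 0.786). The call at 18 hours was lost in 4 of 6 cases when libraries of the compared groups were left out one at a time (uninduced replicate 1 or 2, or 18 hours replicate 2 or 3). Over all 6 cases the fold change ran from 0.13 to 0.16 and adjusted p from 0.0185 to 0.122. It was lost as well without the keratin-rich libraries (0.14, adjusted p = 0.151) and with all 18 libraries in one fit (0.14, adjusted p = 1.0). DESeq2 kept the call (adjusted p = 2.11e-07), as did RLE factors, either other filter on low counts and a fit of the 6 libraries compared.

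In SKMEL2 PKM measured 1744, 1895 and 1930.0 CPM in uninduced cells, 1913, 1980.0 and 2386 CPM at 6 hours and 2009, 2115 and 2233 CPM at 18 hours. The groups overlapped at 6 hours and did not at 18 hours. The log2 fold changes were 0.18 (standard error 0.09, adjusted p = 0.989) and 0.19 (standard error 0.09, adjusted p = 0.987), with a larger error than in SKMEL30. Without replicate 3 of 6 hours the value at 6 hours was 0.06. The change in SKMEL30 did not differ by the test from that in SKMEL2 at 18 hours (interaction -0.05, 95% interval -0.24 to 0.14, adjusted p = 0.977).

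Other glycolytic enzymes stayed below the threshold. ENO2 in SKMEL2 measured 52.2, 53.8 and 48.9 CPM in uninduced cells, 54.3, 53.5 and 57.7 CPM at 6 hours and 57.0, 59.8 and 62.7 CPM at 18 hours, so that the 18-hour libraries all lay above the uninduced ones. Its log2 fold change at 18 hours was 0.21 (standard error 0.07, unadjusted p = 0.00937, adjusted p = 0.987, edgeR). In SKMEL30 ENO2 measured 282, 287 and 279 CPM uninduced, 281, 289 and 294 CPM at 6 hours and 266, 277 and 280.2 CPM at 18 hours. Both induced groups overlapped the uninduced one, and the 18-hour libraries lay below those of 6 hours. The 18-hour value there was -0.05 (adjusted p = 0.688). The interaction of line and induction for ENO2 at 18 hours was -0.26 (standard error 0.07, unadjusted p = 0.00114, adjusted p = 0.732).

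HK1 in SKMEL30 measured 236, 237 and 239 CPM in uninduced cells, 235, 231 and 233 CPM at 6 hours and 225, 225 and 223 CPM at 18 hours. Every induced library lay below every uninduced one, and the spread within groups was small. The log2 fold change at 18 hours was -0.08 (standard error 0.02, unadjusted p = 0.00376, adjusted p = 0.239, edgeR). ALDOC in SKMEL30 gave the widest estimate of all members at 6 hours, 0.94 (standard error 0.48, adjusted p = 0.779), from 0.169, 0.655 and 0.253 CPM uninduced and 0.858, 0.703 and 0.607 CPM at 6 hours. These levels rest on at most 15 counts, and the groups overlapped. Without uninduced replicate 1 or 2 the value was 0.60 or 1.73.

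PFKL in SKMEL2 measured 55.6, 60.4 and 55.6 CPM uninduced and 60.7, 55.2 and 72.8 CPM at 6 hours, with overlap. Its fold change on the log2 scale was 0.14 (edgeR, standard error 0.10, adjusted p = 0.989), and it was 0.01 without replicate 3 and 0.23 without replicate 2 of 6 hours. The high library, replicate 3 at 6 hours, had the highest level of 9 of the 17 enzymes among the 9 SKMEL2 libraries, and enzymes took 1.48% of its counts. GAPDH, chosen after its values were seen because the study scaled qRT-PCR by it, measured 2951, 3186 and 3163 CPM in uninduced SKMEL2, 3044, 3218 and 3799 CPM at 6 hours, and 3032, 3116 and 3284 CPM at 18 hours. The log2 values in SKMEL2 were 0.12 at 6 hours (95% interval -0.06 to 0.30) and 0.02 at 18 hours (-0.16 to 0.20). The value at 6 hours was 0.01 without replicate 3 and 0.19 without replicate 1 of 6 hours. In SKMEL30 they were -0.01 (-0.06 to 0.03) and 0.01 (-0.03 to 0.06), and the sign of the values nearest to 0 changed when single libraries were left out. GAPDH counts were not whole in 17 of 18 libraries, which shows that reads were shared with other genes.

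**Figure D5:**
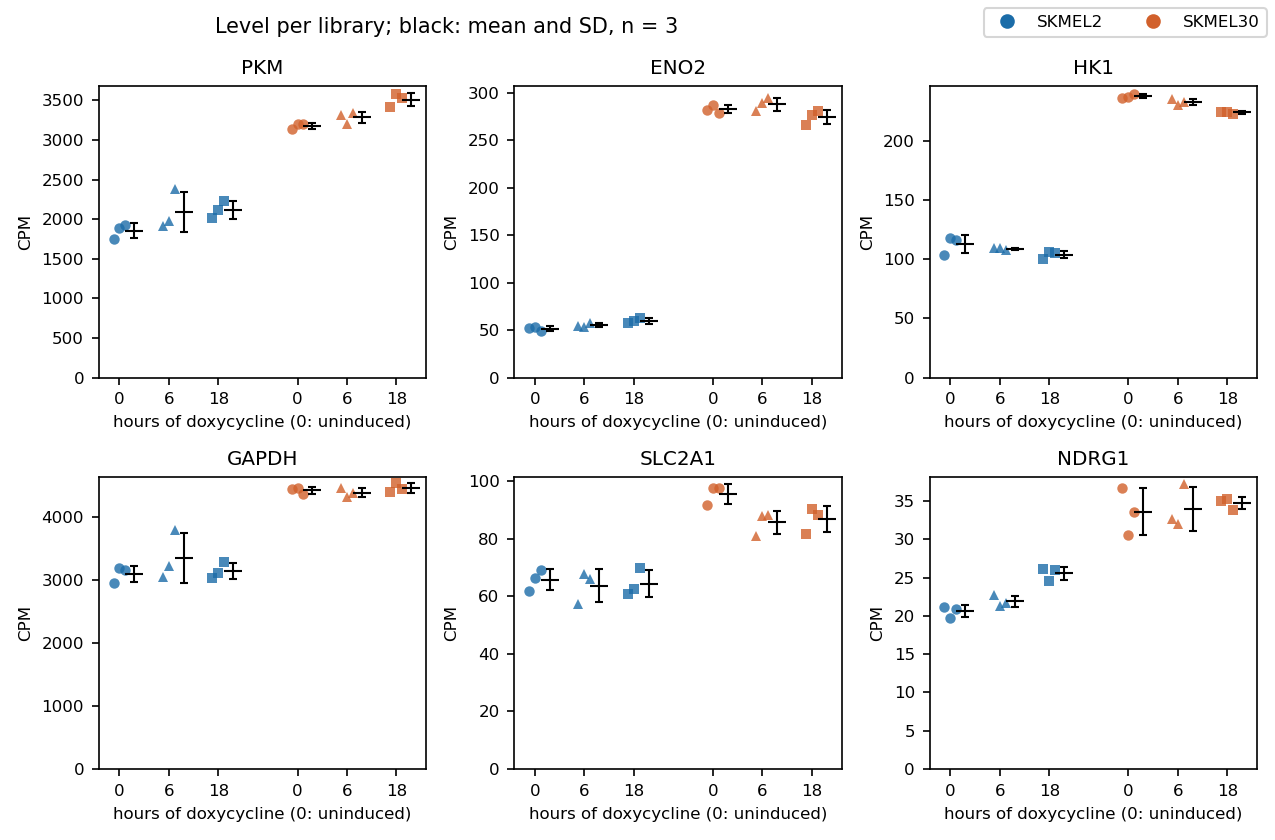
Level in each library (points, CPM on an axis from 0) with the mean and SD of 3 libraries (black) for 6 members, by line and hours of doxycycline. PKM in SKMEL30 goes from 3179 ± 37.4 to 3510.0 ± 79.4 CPM at 18 hours. NDRG1 in SKMEL2 goes from 20.6 ± 0.757 to 25.6 ± 0.874 CPM, and SLC2A1 in SKMEL30 from 95.7 ± 3.50 to 86.8 ± 4.50 CPM.

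Among the transporters SLC2A1 was the one with an unadjusted p under 0.05 at both times in a line. In SKMEL30 it measured 91.6, 97.6 and 97.7 CPM in uninduced cells, 81.0, 87.8 and 88.1 CPM at 6 hours and 81.7, 90.2 and 88.4 CPM at 18 hours. All 6 induced libraries lay below all 3 uninduced ones. The log2 fold change was -0.16 at 6 hours (standard error 0.05, unadjusted p = 0.00454, adjusted p = 0.439, edgeR) and -0.14 at 18 hours (standard error 0.05, unadjusted p = 0.00814, adjusted p = 0.329). At 6 hours it was called when genes with low counts were kept in the fit (adjusted p = 0.0156). In SKMEL2 SLC2A1 ranged from 57.3 to 69.8 CPM over the 9 libraries, with fold changes of -0.04 and -0.03. The difference between the lines at 6 hours was -0.11 (95% interval -0.31 to 0.09, adjusted p = 0.902). SLC2A3, SLC16A1 and SLC16A3 had no unadjusted p under 0.05 in either line at either time.

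The mitochondrial group held PDK1, PDK3, BNIP3 and BNIP3L, and none of the 4 was called in any induced comparison. BNIP3 measured 87.0, 98.0 and 93.5 CPM in uninduced SKMEL30, 86.1, 98.0 and 96.0 CPM at 6 hours and 86.8, 100.6 and 98.8 CPM at 18 hours, with overlap of all groups and fold changes of 0.01 and 0.04. BNIP3L in SKMEL2 measured 102, 103 and 91.4 CPM at 6 hours and 111, 102 and 104 CPM at 18 hours, a log2 difference of 0.09 (standard error 0.07, adjusted p = 1.0, edgeR) that was 0.04 without replicate 3 of 6 hours and 0.05 without replicate 1 of 18 hours. PDK1 changed by -0.13 and 0.01 in SKMEL2 and by -0.01 and -0.005 in SKMEL30 on the log2 scale. Of 13 mitochondrially encoded mRNAs, 6 were called in SKMEL30, all higher, at 6 hours and 6 at 18 hours, where 0.206% and 0.293% of all genes were called. In SKMEL2 edgeR called none at either time (0 and 3 at an unadjusted p under 0.05), and all 13 values at 18 hours were below 0 (median -0.22). Their share of counts was between 5.66% and 6.05% in uninduced SKMEL30 and between 6.26% and 6.37% at 18 hours. In SKMEL2 it was between 5.78% and 8.64%, highest in uninduced replicate 3. Its part in the values of the members was not tested.

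NDRG1, a stress-responsive gene induced by hypoxia, had the smallest p of the other HIF targets. In SKMEL2 it measured 21.1, 19.8 and 20.9 CPM in uninduced cells, 22.7, 21.3 and 21.7 CPM at 6 hours and 26.1, 24.6 and 26.0 CPM at 18 hours. The 18-hour libraries lay above all others of the line. The log2 fold change at 18 hours was 0.31 (standard error 0.07, 95% interval 0.16 to 0.46, unadjusted p = 0.000823, adjusted p = 0.641, edgeR), and it stayed between 0.28 and 0.34 when libraries were left out one at a time. In SKMEL30 NDRG1 changed by 0.02 and 0.05 on the log2 scale. The interaction at 18 hours was -0.26 (95% interval -0.48 to -0.05, unadjusted p = 0.0174, adjusted p = 0.895).

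P4HA1 and P4HA2 encode the catalytic subunits of collagen prolyl hydroxylase. P4HA2 in SKMEL2 measured 32.3, 33.5 and 27.6 CPM uninduced and 33.8, 31.1 and 37.8 CPM at 6 hours, with overlap. It changed by 0.14 on the log2 scale (edgeR, standard error 0.10, adjusted p = 0.989), and by 0.06 without uninduced replicate 3 or without replicate 3 of 6 hours. In SKMEL30 at 18 hours P4HA1 changed by 0.10 (unadjusted p = 0.0342, adjusted p = 0.5) and P4HA2 by 0.12 (unadjusted p = 0.0466, adjusted p = 0.537). VEGFA, the angiogenic growth factor and a classical HIF target, changed by -0.09 and -0.16 in SKMEL2 and by 0.05 and 0.08 in SKMEL30 at 6 and 18 hours, without passing the test. EGLN3, ANKRD37 and KDM3A were not called in any of these comparisons.

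The later time set against the earlier one gave no called member. In SKMEL2 none of 31 was called and 1, NDRG1, had an unadjusted p under 0.05 (0.22, adjusted p = 1.0, edgeR), where 0% of 16120 genes were called and 418 had an unadjusted p under 0.05. ENO2 there had a value of 0.11 (standard error 0.07). In SKMEL30 none of 32 was called and 3 had an unadjusted p under 0.05, where 0.02% of all genes were called and 5.56% had such a p. These 3 were PKM (0.10, standard error 0.03, adjusted p = 0.557), ENO2 (-0.07, standard error 0.03, adjusted p = 0.825) and HK1 (-0.05, standard error 0.02, adjusted p = 0.885). DESeq2 called no member in either line.

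The difference in response was tested for each member, and it passed the threshold for none. At 6 hours none of 32 members was called and none had an unadjusted p under 0.05 (edgeR interaction), where 0% of 17133 genes were called and 842 had an unadjusted p under 0.05. At 18 hours none was called and 2, NDRG1 and ENO2, had an unadjusted p under 0.05, where 0.00584% of all genes were called and 5.16% had such a p. DESeq2 called none at either time.

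An exact permutation test, two-sided, compared the 6 induced with the 3 uninduced libraries of a line for each member, 63 tests in all with 84 splits each and a smallest possible p of 0.0119. An unadjusted p under 0.05 was reached by 6 of them, and no adjusted p lay under 0.05 (smallest 0.469). With this smallest p and this number of tests, an adjusted p under 0.05 was nearly out of reach, so its absence says little. In SKMEL30 SLC2A1 (-0.15 on the log2 scale, exact p = 0.0119), HK1 (-0.06, exact p = 0.0238) and PFKM (-0.05, exact p = 0.0238) had no overlap between induced and uninduced libraries, 3 of 32 members, where 4.38% of all genes had none. In SKMEL2 no member of 31 was free of overlap, where 2.52% of all genes were. With 3 libraries against 3 the exact test cannot go below 0.1.

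Other genes of the pathway, from lists kept apart from the members, gave no call after induction. Of 13 genes of the HIF machinery (HIF subunits, hydroxylases, VHL and coactivators) 12 were tested, of 30 other hypoxia-induced genes 28, and of 34 other enzymes of glucose and pyruvate use 25. None of them was called in the 4 induced comparisons by edgeR, and 5, 6 and 3 values of the lists had an unadjusted p under 0.05 over these comparisons, where 3.37% to 9.14% of all genes had one. The smallest p in the induced comparisons were those of HIF1A in SKMEL30 at 18 hours (0.08, adjusted p = 0.376), PFKFB2, an enzyme that sets the activator of phosphofructokinase, in SKMEL30 at 18 hours (-0.13, adjusted p = 0.338), and PC, pyruvate carboxylase, in SKMEL30 at 18 hours (-0.12, adjusted p = 0.501). Between the uninduced lines 10 of 12 genes of the HIF machinery were called (83.3%, where 75.9% of all genes were), 4 higher and 6 lower in SKMEL30. Of 28 other hypoxia-induced genes 25 were called (89.3%), 12 higher and 13 lower, with a median log2 difference of -0.14. Of 27 other enzymes tested there 21 were called (77.8%), 15 higher and 6 lower. EPAS1, the HIF-2 alpha subunit, was at 8.51 ± 0.445 CPM in uninduced SKMEL2 and 62.2 ± 0.227 CPM in uninduced SKMEL30 (SD, n = 3), and its log2 difference was 2.87 (standard error 0.06, adjusted p = 1.87e-18). HIF1A was lower in SKMEL30, at 392 ± 32.7 CPM against 282 ± 4.72 CPM (-0.48, standard error 0.06, adjusted p = 2.89e-07). HIF activity is set mainly by protein stability, which these counts do not measure.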

How the data were processed

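RNA from uninduced and doxycycline-induced cells was sequenced from a KAPA mRNA library kit. The expected counts per gene deposited by the authors come from RSEM 1.3.0 after alignment with STAR to GRCh38 and an Ensembl annotation. The submitters' processing notes give STAR 2.2.2a and cutadapt 1.5, and the methods of the study name other versions of both. RSEM shares reads among similar genes, and 12.3% of the values were not whole. Among the members, TPI1, PGAM1, LDHA and ANKRD37 had values that were not whole in all 18 libraries, so their levels are uncertain. A further 18 members had such values in some libraries, which makes their levels less certain too. The most affected of these were GAPDH and PGK1 (17 libraries), HK2 and PDK1 (16), and ENO1 and BNIP3 (14). The values of 13 members were whole in all libraries.

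Counts were rounded in R 4.3.3, filtered with filterByExpr, scaled by TMM and tested with edgeR 4.0.16 (glmQLFit, glmQLFTest), 9 libraries of a line in a fit, or all 18 for differences between lines. Calls are genes whose p, adjusted by Benjamini and Hochberg over all genes tested, was under 0.05. Standard errors are the log2 fold change divided by the square root of F, and 95% intervals use the degrees of freedom of the fit. The steps were tested on simulated data. Single members were compared by exact permutation tests. Lengths are those of canonical transcripts in a GRCh37 annotation matched by gene ID, and promoters are from RefSeq on GRCh38.p14. Fold changes come from the fit of a line, and CPM from the scaling of all 18 libraries.

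The members and lists were chosen with earlier results of these data known. Values per library are given for members called, for those with an unadjusted p under 0.05 at both times, for the 3 smallest p of each induced comparison and for the 10 largest differences between lines. GAPDH, BNIP3 after induction and other values outside this rule were chosen after they were seen. Alternatives were DESeq2 1.42.0, RLE factors, no filter or at least 10 counts, a replicate block, the 6 libraries compared or all 18 in a fit, each library left out, and, added after the data were seen, the fit without both keratin-rich SKMEL30 libraries and shares not divided by length. All columns were matched to samples by their labels.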

Additional observations from a re-analysis of the deposited data

Results flagged for a closer look

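The 6 induced libraries of a line, 6 and 18 hours together, were searched for a library that stood apart by Dixon's gap ratio, for the members whose values per library are given above (32 sets). There were 3 such sets, all in SKMEL2, where chance alone gives about 1 in 20, or 1.6. GAPDH at 6 hours in replicate 3 had a gap ratio of 0.671, with 3799 CPM against 3032 to 3284 CPM in the other 5 libraries. SLC16A3 in the same library had a ratio of 0.652, with 3.30 CPM against 1.72 to 2.27 CPM. ALDOC in replicate 2 at 6 hours had a ratio of 0.678, with 0.402 CPM against 0.0552 to 0.167 CPM.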

How the results depend on the processing

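Counts of called members stayed at 0 in every alternative in SKMEL2 (6 hours, 18 hours and 18 against 6 hours), in SKMEL30 for 18 against 6 hours and in both interactions. Between the uninduced lines the called members ran from 23 to 27, where 75.9% of all genes were called in the main fit. Calls over all genes ran from 12557 to 12759 with a library left out. Otherwise they ran from 9798 (of 12582 tested, at least 10 counts) to 14397 (of 35508, no filter). In SKMEL30 at 6 hours the count was 1 (SLC2A1) when low counts were not filtered and 0 otherwise. At 18 hours in SKMEL30 it was 1 in the fit as reported and ran from 0 to 1 with a library left out and was 0 with all 18 libraries in one fit and 0 without both keratin-rich libraries. The log2 value of GAPDH changed sign near 0 with a library left out, and ran from -0.012 to 0.043 in SKMEL2 at 18 hours and from -0.026 to 0.001 in SKMEL30 at 6 hours. With no filter on low counts, 158, 168, 321 and 359 genes in all were called at 6 and 18 hours in SKMEL2 and in SKMEL30, against 2, 2, 31 and 44 in the main fit. DESeq2 called 8, 9, 32 and 68, and all 18 libraries in one fit gave 6, 7, 5 and 9. The cause of these differences was not tested. Replicate numbers did not pair the libraries (3 of 9 correlations of same-numbered libraries above 0.1 in SKMEL2, 1 of 9 in SKMEL30), and with a replicate block the PKM value in SKMEL30 at 18 hours was 0.14 (adjusted p = 0.0357) and 37 genes were called against 44. Among the 10 members with the largest differences between the lines, the block ended the call of SLC16A3 (-0.72, adjusted p = 0.126) and no other. For other members called between the lines, KDM3A among them, the result with the block is not given here. Without division by transcript length the share of BNIP3 in uninduced SKMEL2 was 12.9% and in uninduced SKMEL30 46.6%. That of LDHA was 58.8% and 65.8%, and that of HK1 46.3% and 59.0%. The order of the lines was kept for BNIP3, LDHA, HK1, ENO2, PFKP and PFKM. The larger gene of the pair changed for HK1 and LDHA in SKMEL2, for BNIP3 in SKMEL30, and for PDK1 and PDK3 in both lines. In uninduced SKMEL2 the share of PDK1 was 23.1% per length and 70.7% without the division. In uninduced SKMEL30 these shares of PDK1 were 29.0% and 76.7%. The low counts of CA9, CA12, ADM, ALDOC, SLC16A3 and EGLN3 limit what could be seen of them.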
